A study of Mus musculus with 12 samples.

Results

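Vegfa, Hbegf, Pdgfrb and Emcn are 4 genes of vascular growth factor signalling and of the vessel wall that carry a name in a table of changed probe sets that the authors deposited. Every row of that table with 1 of these symbols was taken, which gave 6 of its 276 lower probe sets and none of its 178 higher ones, 2 each for Vegfa and Pdgfrb and 1 each for Hbegf and Emcn, among 22626 probe sets measured on each of 12 arrays. All 6 were lower in irradiated cells. The table holds only probe sets that differed at least 2-fold between irradiated and control arrays at an unadjusted p under 0.05, so the fall itself chose the members and is given here as a description, with no test. Other probe sets of these genes carry no name and were not analysed here.

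The arrays measured RNA of KSL cells (Kit positive, Sca-1 positive, lineage negative), the bone marrow fraction that holds blood stem cells and early progenitors, sorted from C57Bl/6 mice raised to 10 weeks of age. There were 6 arrays of unirradiated mice (0 cGy, control) and 6 arrays of mice exposed to 550 cGy in a cesium irradiator, with isolation placed at day 14 after exposure by the series' design text. No transgene or deletion is named in either group. The labels do not say that arrays came from separate mice, so p-values measure only how these samples vary, and that variation may be technical. The sorting markers Kit and Ly6a had no named probe set, so the cell label could not be checked against them.

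VEGF-A is a secreted growth factor that binds receptors on endothelial cells and is induced by low oxygen. HB-EGF is an EGF family ligand made as a membrane protein and released by metalloproteases, and it signals through EGF receptors. PDGF receptor beta is a receptor tyrosine kinase of pericytes and stromal cells, and endomucin is a sialomucin of capillary and venous endothelium that is also found on the surface of mouse blood stem cells. In mouse bone marrow, VEGF signalling to sinusoidal endothelium is known to take part in the recovery of vessels after irradiation.

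Values are the authors' log2 expression values, and the array medians lay between 6.94 and 7.01. Across all 22626 probe sets, limma called 1329 higher and 1238 lower after irradiation at a Benjamini-Hochberg adjusted p under 0.05, so that 51.8% of calls were rises, against 62.0% (1765 higher and 1081 lower) when the array medians were subtracted. Replicates 1 to 3 differed from replicates 4 to 6 along the second principal component (16.5% of the variance). The control sets also split along the first (35.8%), with replicates 1 to 3 at -51.52 to -40.99 and replicates 4 to 6 at -9.84 to 0.02. Control replicates 4 to 6 thus lay nearer the irradiated arrays, whose sets overlapped there at 12.09 to 32.92 and 27.3 to 34.53. The labels name no batch, and these replicate sets were defined from the data. The split was taken from these same arrays, so adjusted p-values and calls between the sets describe its size in a probe set. They are not independent evidence that the sets differ. Values within each set are given beside the pooled ones.

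Of the 6 probe sets of Vegfa, Hbegf, Pdgfrb and Emcn, limma called 6 lower, against 5.47% of all probe sets called lower, and since this contrast chose the members nothing is read from that count. Hbegf lost its call without control replicate 1, 2, 4 or 6 or irradiated replicate 3 and in replicates 1 to 3 alone, and Vegfa probe set 1451959_a_at lost its call without control replicate 1, 4 or 6 or irradiated replicate 1, 2 or 3. In 3 of the 6, every irradiated array lay below every control array, a separation found in 2.8% of all probe sets. In each replicate set taken alone, all 6 showed that separation, which 5.34% of all probe sets did. The median log2 difference of the 6 was -1.34, and that of all probe sets was 0.01. Each probe set mixes the RNA of all sorted cells, so fewer cells expressing a gene and less RNA per cell cannot be told apart.

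**Figure D1:**
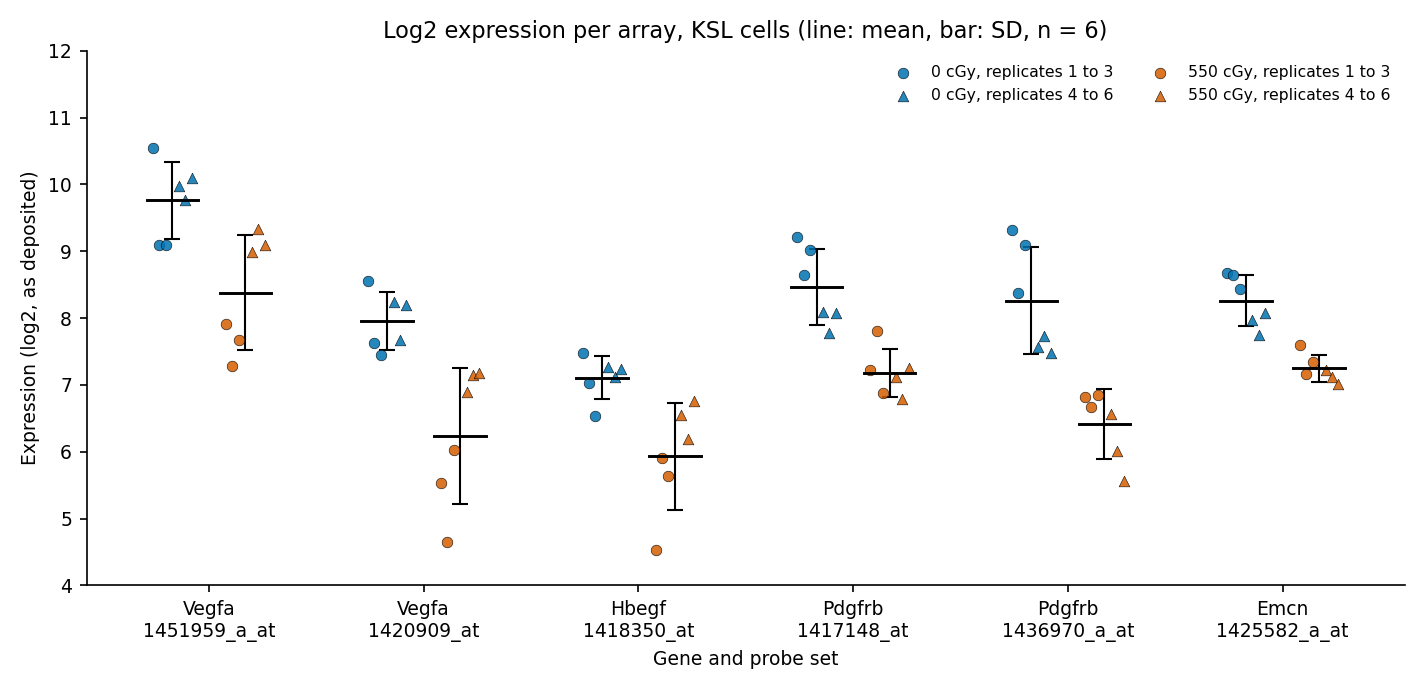
Log2 expression (vertical axis) of the 6 probe sets on each array, with control arrays in blue and irradiated arrays in orange. Circles are replicates 1 to 3 and triangles replicates 4 to 6, and lines and bars give the mean and SD of 6 arrays. Irradiated Vegfa and Hbegf arrays split by replicate set, with circles low. Control Pdgfrb and Emcn arrays split with circles high, and so do the irradiated arrays of Pdgfrb 1436970_a_at.

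Vegfa encodes VEGF-A (Entrez gene ID 22339, GRCm38.p6 chr17:46016993-46032377). In probe set 1420909_at the control arrays lay at 7.45 to 8.56 with a median of 7.93, and the irradiated arrays at 4.65 to 7.17 with a median of 6.46. The groups did not overlap, and the irradiated arrays were spread far more widely than the controls. The means were 7.95 ± 0.44 and 6.24 ± 1.02 (SD, n = 6 per group), a log2 difference of -1.72 (SE 0.40) or a 3.29-fold lower level.

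The other Vegfa probe set, 1451959_a_at, was the brighter of the pair by its mean over 12 arrays. Its control arrays lay at 9.09 to 10.55 with a median of 9.87, and its irradiated arrays at 7.28 to 9.33 with a median of 8.45. Here the groups overlapped, because irradiated replicates 5 and 6 lay above control replicates 2 and 3, replicate 6 by less than the second decimal shows. The means were 9.76 ± 0.58 and 8.38 ± 0.86 (SD, n = 6 per group), a log2 difference of -1.38 (SE 0.37) or a 2.61-fold lower level.

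RefSeq annotates more than 1 start for Vegfa in GRCm38.p6, and the windows from 250 bases before to 50 bases after 2 of them are printed to show the sequence at which transcripts of this member begin. Capitals mark matches, on either strand, to the searched motifs ACGTG (the core of the hypoxia response element), GGGCGG (bound by Sp1), GCGGGGGCG (bound by Egr factors), TGANTCA (bound by AP-1), CAGGAAGT (bound by ETS factors), AGATAA (bound by GATA factors) and TGACGTCA (the cAMP response element), and no matches overlap in these windows. Both are written 5′ to 3′ on the minus strand, which is the strand of the gene.
Vegfa, chr17:46032328-46032627: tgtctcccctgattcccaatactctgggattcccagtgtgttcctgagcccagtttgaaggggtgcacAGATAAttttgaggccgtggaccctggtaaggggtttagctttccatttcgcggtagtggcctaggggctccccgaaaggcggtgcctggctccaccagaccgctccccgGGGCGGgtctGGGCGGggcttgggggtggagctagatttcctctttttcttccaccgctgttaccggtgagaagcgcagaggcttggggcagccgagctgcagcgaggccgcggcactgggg
Vegfa, chr17:46025114-46025413: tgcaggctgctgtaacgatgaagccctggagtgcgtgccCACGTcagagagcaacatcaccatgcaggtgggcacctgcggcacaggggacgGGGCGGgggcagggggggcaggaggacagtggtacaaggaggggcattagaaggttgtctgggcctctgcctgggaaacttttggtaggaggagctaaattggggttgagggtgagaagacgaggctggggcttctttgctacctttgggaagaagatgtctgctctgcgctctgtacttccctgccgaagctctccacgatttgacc
The first window had a GC content of 62.0% and held AGATAA once and GGGCGG at 2 positions, from 72 and from 62 bases before the start. The other, at a start within the gene, held GGGCGG from 158 bases and ACGTG, on the opposite strand, from 211 bases before it. Of 32851 promoter windows of this length in the RefSeq table, 35.7% held GGGCGG, 19.6% ACGTG and 11.2% AGATAA. A match is a description of the letters only.

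The size of the Vegfa difference was also taken within each replicate set. Probe set 1420909_at changed by -2.47 within replicates 1 to 3 against -0.96 within replicates 4 to 6 (SE 0.35 each), or 5.55-fold and 1.95-fold lower. Probe set 1451959_a_at changed by -1.96 and -0.81 (SE 0.33 each), or 3.89-fold and 1.75-fold lower. The difference between the sets, a comparison that did not choose the members, was 1.51 (SE 0.49, limma adjusted p = 0.268) and 1.15 (SE 0.47, limma adjusted p = 0.379), so it did not pass the threshold in either probe set. Only 0.133% of all probe sets passed it. In simulated data this comparison recovered 26 of 100 differences of 1 log2 unit, so a miss here or below does not show equal changes in the sets.

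The replicate sets were then compared within each group. Irradiated replicates 4 to 6 exceeded irradiated replicates 1 to 3 by 1.67 in 1420909_at (SE 0.35, limma adjusted p = 0.0504) and by 1.52 in 1451959_a_at (SE 0.33, limma adjusted p = 0.0573), both just short of the threshold, which 1.06% of all probe sets passed. They passed it with array weights, with the dimmest probe sets left out, with a trended prior or without control replicate 1, and 1420909_at also without irradiated replicate 3, at adjusted p of 0.00543 to 0.0464. The replicate sets held 80.5% and 92.9% of the variation among irradiated arrays in these probe sets. Among control arrays they held 4.0% and 12.1%, and the control sets differed by 0.16 and 0.37 (SE 0.35 and 0.33, limma adjusted p = 0.835 and 0.552).

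The 2 Vegfa probe sets moved together from array to array. After the mean of each group and replicate set was removed, their deviations correlated with Pearson r = 0.80 (Spearman rho = 0.80) over 12 arrays. The dimmer probe set lay below the brighter by 1.81 ± 0.23 log2 units in controls and by 2.14 ± 0.34 after irradiation (SD, n = 6 per group).

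Hbegf encodes the other growth factor (gene ID 15200, GRCm38.p6 chr18:36504927-36515805), measured by probe set 1418350_at. The control arrays lay at 6.53 to 7.47 with a median of 7.18, and the irradiated arrays at 4.53 to 6.75 with a median of 6.05. The groups overlapped, since irradiated replicates 4 and 6 exceeded control replicate 3. The means were 7.11 ± 0.32 and 5.93 ± 0.80 (SD, n = 6 per group), a log2 difference of -1.18 (SE 0.31) or a 2.27-fold lower level.

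The Hbegf difference within the replicate sets was -1.65 within replicates 1 to 3 against -0.71 within replicates 4 to 6 (SE 0.33 each), or 3.14-fold and 1.63-fold lower, a difference of 0.94 that missed the threshold (SE 0.46, limma adjusted p = 0.476). Irradiated replicates 4 to 6 exceeded irradiated replicates 1 to 3 by 1.14 (SE 0.33, limma adjusted p = 0.117), and the control sets differed by 0.19 (SE 0.33, limma adjusted p = 0.774). Its SD among irradiated arrays was 2.49 times that among controls. For the other probe sets this ratio was 2.34 in Vegfa 1420909_at and 1.5 in 1451959_a_at, and 0.54 to 0.65 in Pdgfrb and Emcn.

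**Figure D2:**
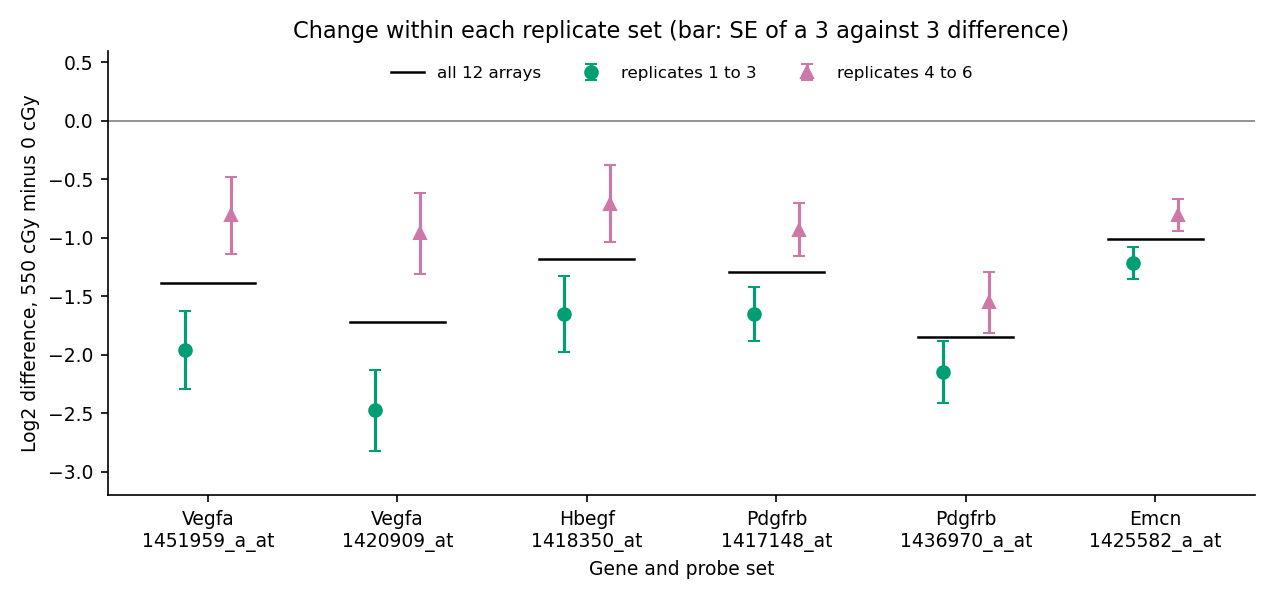
Log2 difference of irradiated minus control arrays (vertical axis) for each probe set, within replicates 1 to 3 (circles) and within replicates 4 to 6 (triangles), with the SE of a difference of 3 against 3 arrays as bars. Horizontal lines give the difference over all 12 arrays. Every value lies below 0, and in each probe set the change in replicates 1 to 3 is the larger in size, by a margin that passed the threshold in none of the 6. The same order of sizes held for 174 of the 197 lower named genes of the authors' table, with medians of -1.61 and -0.84.

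Pdgfrb encodes the receptor of the group (gene ID 18596, GRCm38.p6 chr18:61045127-61085067). In probe set 1436970_a_at the control arrays lay at 7.48 to 9.32 with a median of 8.05, and the irradiated arrays at 5.56 to 6.85 with a median of 6.62. The groups did not overlap, and every control array of replicates 1 to 3 lay above those of replicates 4 to 6. The means were 8.26 ± 0.80 and 6.41 ± 0.52 (SD, n = 6 per group), a log2 difference of -1.85 (SE 0.35) or a 3.60-fold lower level.

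Probe set 1417148_at of Pdgfrb, the brighter of its pair, had control arrays at 7.78 to 9.21 with a median of 8.36 and irradiated arrays at 6.78 to 7.81 with a median of 7.17. The groups overlapped only through irradiated replicate 2, which exceeded control replicate 5. The means were 8.47 ± 0.57 and 7.18 ± 0.36 (SD, n = 6 per group), a log2 difference of -1.29 (SE 0.25) or a 2.44-fold lower level. The array-by-array difference between the Pdgfrb probe sets went from -0.20 ± 0.31 in controls to -0.76 ± 0.59 after irradiation (SD, n = 6 per group). Their deviations within group and replicate set correlated with r = 0.12 (Spearman rho = -0.03) over 12 arrays, against 0.80 for the Vegfa probe sets.

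Pdgfrb was lower in control replicates 4 to 6 than in control replicates 1 to 3. The difference was -1.34 in 1436970_a_at (SE 0.26, limma adjusted p = 0.0131) and -0.97 in 1417148_at (SE 0.23, limma adjusted p = 0.0273), and 3.26% of all probe sets were called lower in this comparison. The call in 1436970_a_at ended without control replicate 6 (-1.29, adjusted p = 0.0504), and that in 1417148_at without control replicate 1, 3, 4, 5 or 6 (-0.85 to -1.03, adjusted p = 0.0629 to 0.103). The irradiated sets differed by -0.74 (SE 0.26, limma adjusted p = 0.183) and -0.25 (SE 0.23, limma adjusted p = 0.627).

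The change of Pdgfrb with irradiation was -2.15 within replicates 1 to 3 against -1.55 within replicates 4 to 6 in 1436970_a_at (SE 0.26 each), or 4.43-fold and 2.93-fold lower. In 1417148_at it was -1.65 and -0.93 (SE 0.23 each), or 3.14-fold and 1.90-fold lower. The differences between the sets were 0.60 (SE 0.37, limma adjusted p = 0.583) and 0.72 (SE 0.32, limma adjusted p = 0.430), and neither passed the threshold.

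Emcn encodes the sialomucin of the group (gene ID 59308, GRCm38.p6 chr3:137341062-137431069), measured by probe set 1425582_a_at. The control arrays lay at 7.75 to 8.68 with a median of 8.26, and the irradiated arrays at 7.02 to 7.60 with a median of 7.19. The groups did not overlap, and this probe set had the smallest pooled SD of the 6, at 0.31. The means were 8.26 ± 0.38 and 7.25 ± 0.21 (SD, n = 6 per group), a log2 difference of -1.01 (SE 0.17). At 2.02-fold lower it lay closest of the members to the 2-fold limit of the authors' table, where the nearest probe set inside was 2.0005-fold and the nearest outside 1.999-fold lower.

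The window of the same length at the start of Emcn is printed, on the plus strand, for comparison with those of Vegfa.
Emcn, chr3:137340828-137341127: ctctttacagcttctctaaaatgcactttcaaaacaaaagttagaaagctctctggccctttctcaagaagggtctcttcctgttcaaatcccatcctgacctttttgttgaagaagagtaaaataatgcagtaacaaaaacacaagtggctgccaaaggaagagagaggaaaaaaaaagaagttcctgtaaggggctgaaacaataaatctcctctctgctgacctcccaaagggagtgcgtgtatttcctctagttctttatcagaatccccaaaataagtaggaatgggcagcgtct
It had a GC content of 41.0%, against a median of 52.7% over the RefSeq windows, and held none of the searched motifs, which says only that these letters are not in this window.

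Emcn was also lower in control replicates 4 to 6 than in control replicates 1 to 3, with a log2 difference of -0.65 (SE 0.14, limma adjusted p = 0.0168). That call ended without control replicate 5 (-0.56, adjusted p = 0.0705). The irradiated sets differed by -0.24 (SE 0.14, limma adjusted p = 0.393). Emcn changed with irradiation by -1.22 within replicates 1 to 3 against -0.81 within replicates 4 to 6 (SE 0.14 each), or 2.33-fold and 1.75-fold lower, a difference of 0.41 that missed the threshold (SE 0.19, limma adjusted p = 0.454). The replicate sets held 87.9% of the variation of Emcn among control arrays and 42.6% among irradiated arrays. For Pdgfrb they held 83.6% and 61.5% in 1436970_a_at, where every irradiated array of replicates 4 to 6 lay below those of replicates 1 to 3, and 86.5% and 14.4% in 1417148_at. For Hbegf they held 11.1% and 61.2%.

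The 3 member probe sets called lower between the control sets were thus those of Pdgfrb and Emcn, against 3.26% of all probe sets. Between the irradiated sets 0 of 6 were called, where only 1.06% of all probe sets were called in either direction, so nothing is read from that 0. Whether the members differ from each other in these shifts was not tested. Other genes moved with the same split of the controls. Of 9 KSL markers, 4 had a name in the authors' table, and Procr and Hlf among them were also lower in control replicates 4 to 6, with log2 differences of -1.10 and -1.23 (limma adjusted p = 0.00409 and 0.00132). Procr encodes the surface receptor EPCR and Hlf a stem cell transcription factor. The control sets differed by -0.71 in Flt3, a cytokine receptor gene, and by -0.24 in Slamf1, a stem cell surface marker gene (limma adjusted p = 0.288 and 0.747). With irradiation Slamf1 was 3.20-fold higher and the other 3 were lower. The mean log2 level of the 4 markers was 9.04 to 9.27 in control replicates 1 to 3, 8.26 to 8.36 in control replicates 4 to 6, 7.80 to 8.43 in irradiated replicates 1 to 3 and 7.75 to 8.01 in irradiated replicates 4 to 6. Of 8 erythroid genes listed, all were named in the table and so chosen by the irradiation contrast. In their brightest probe sets 2 were called higher in control replicates 4 to 6, against 5.14% of all probe sets. Among these 2, Tfrc was not called in its other named probe set (0.44, limma adjusted p = 0.348). The mean of the 8 went from 6.73 to 6.95 in control replicates 1 to 3 up to 7.44 to 8.13 in control replicates 4 to 6 and was 8.16 to 10.02 after irradiation. The part of these markers in the values of Pdgfrb and Emcn was not tested.

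**Figure D3:**
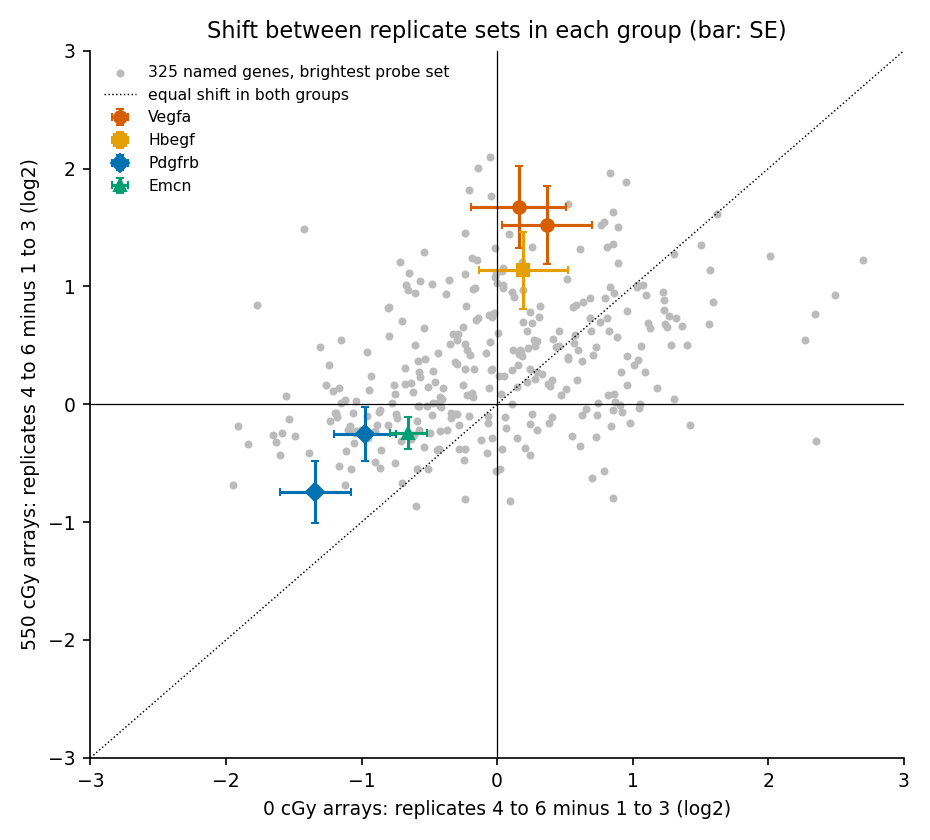
Difference between replicates 4 to 6 and replicates 1 to 3 in control arrays (horizontal axis, log2) and in irradiated arrays (vertical axis, log2), with SE bars for the 6 member probe sets and grey points for the brightest probe set of 325 named genes. Vegfa and Hbegf lie near 0 on the horizontal axis and at 1.14 to 1.67 on the vertical axis, while Pdgfrb and Emcn lie at -1.34 to -0.65 on the horizontal axis and at -0.74 to -0.24 on the vertical axis.

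Correlations between members depended on whether the replicate-set means were removed. With group means alone removed, r includes the shifts between replicate sets given above, and the deviations of Hbegf and of both Vegfa probe sets correlated with r = 0.65, and those of Emcn and the Pdgfrb probe sets with r = 0.66 and 0.80. Between Vegfa or Hbegf and Pdgfrb or Emcn r lay between -0.44 and -0.08. With the means of replicate sets removed as well, the correlation of Vegfa with Hbegf was 0.11 in both probe sets, and that of Emcn with Pdgfrb was -0.19 and 0.15, whereas Emcn and Vegfa stood at 0.53 and 0.56. These values describe 12 arrays that share the same hybridisations and normalization.

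**Figure D4:**
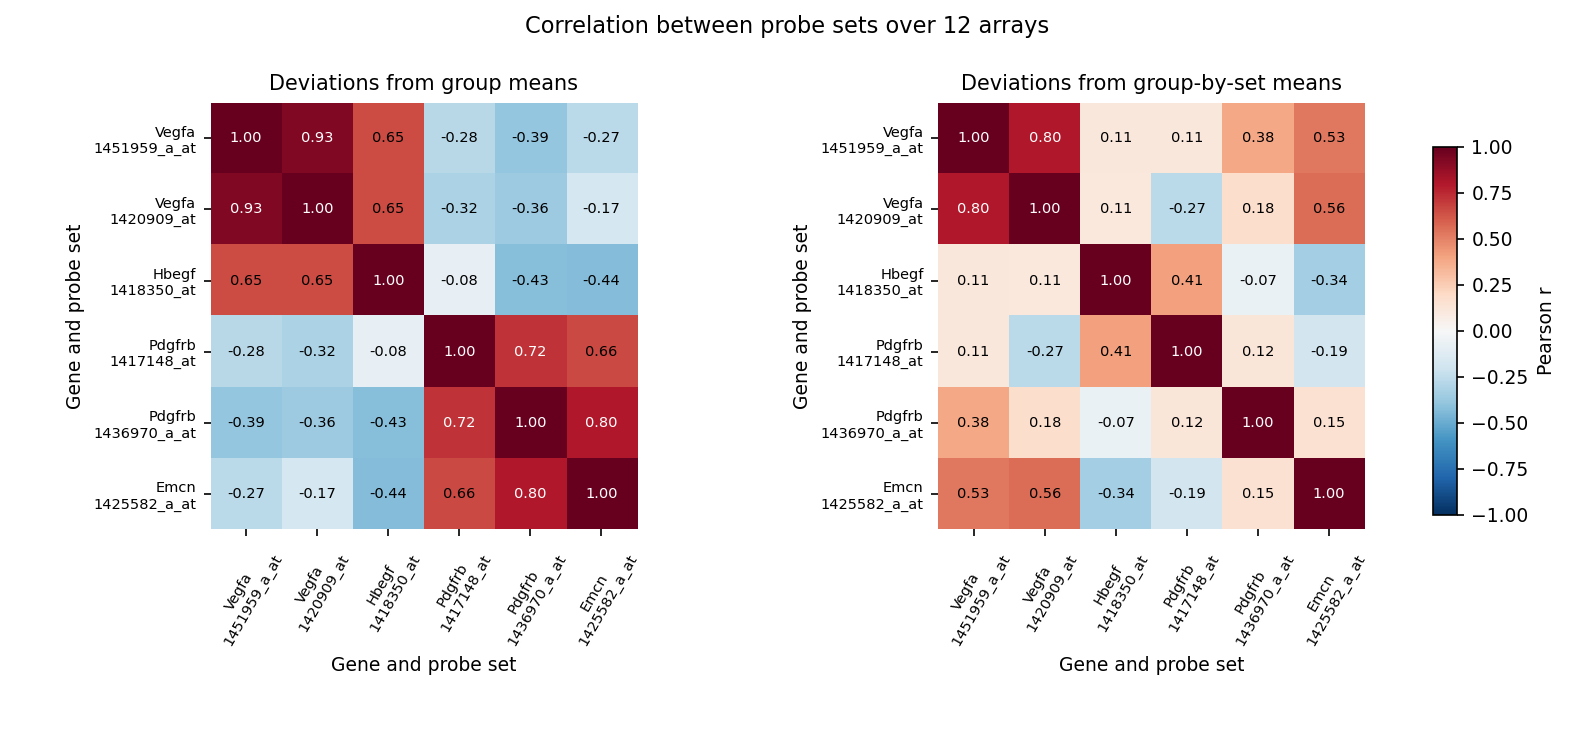
Pearson r between the 6 probe sets over 12 arrays, after subtracting group means (left) and group-by-replicate-set means (right), with red for positive and blue for negative values. On the left, Vegfa with Hbegf and Pdgfrb with Emcn are positive, and these values include the shifts between replicate sets. On the right the r of 0.80 between the Vegfa probe sets is the highest value off the diagonal.

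Among 324 other named genes, those closest to each member were ranked by the correlation of deviations within group and replicate set over 12 arrays, taking the brightest probe set of each gene. All 324 were chosen by the same contrast as the members, and the deviations have 4 means removed, so they hold less information than 12 free values. The highest of 324 values are high by selection, and the ranking is a description that was not tested. Closest to Vegfa were Plk2, a polo-like kinase gene (r = 0.96), Cd28, which encodes a costimulatory receptor (r = 0.90), and Il1r2, which encodes the decoy receptor of interleukin-1 (r = 0.87). With group means alone removed these were 0.94, 0.64 and 0.80. Within replicates 1 to 3 and 4 to 6, the log2 changes were -2.48 and -0.33 for Plk2, -0.98 and -1.05 for Cd28 and -1.70 and -1.97 for Il1r2.

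Closest to Hbegf were Ccrl2, which encodes a chemerin-binding receptor (r = 0.94), Lif, a cytokine gene (r = 0.92), and Cox6a2, a cytochrome c oxidase subunit gene (r = 0.89), with 0.46, 0.90 and -0.11 over group deviations. Within replicates 1 to 3 and 4 to 6, the log2 changes with irradiation were -2.60 and 0.01 for Ccrl2, -2.81 and -1.40 for Lif and -0.81 and -1.37 for Cox6a2. Closest to Pdgfrb, in its probe set 1417148_at, were Timp2, a metalloproteinase inhibitor gene, Ptms, which encodes parathymosin, and Egr3, a transcription factor gene. Their r was 0.79, 0.79 and 0.78 (Spearman rho = 0.60, 0.76 and 0.78), or 0.78, 0.85 and 0.55 over group deviations. The other Pdgfrb probe set followed 1417148_at with r = 0.12 only, so this ranking describes 1417148_at and not the gene. Closest to Emcn were Dst, a cytoskeletal linker gene, Fosl2, an AP-1 subunit gene, and Cytip (r = 0.81, 0.80 and 0.76, or 0.26, 0.39 and 0.12 over group deviations).

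Few other genes of the vascular pathways had a name in the authors' table, whose 325 named genes divide into 128 higher and 197 lower. The arrays' coverage of the listed genes was not analysed here, and all named ones were selected on this same contrast. Of those described here, limma called Notch1, Hif1a, Ndrg1 and Robo4 lower and Podxl, Sox18 and Vwf higher, where 5.87% of all probe sets were called higher. Of 9 VEGF and PDGF ligands only Vegfa was named, of 7 of their receptors and coreceptors only Pdgfrb, and of 15 EGF family ligands, receptors and shedding proteases only Hbegf. Of 16 angiopoietin, Notch and other angiogenic factors only Notch1 was named, which encodes a receptor for membrane-bound ligands. Its brightest probe set went from 9.23 ± 0.33 to 7.96 ± 0.38 (SD, n = 6 per group), and its other named probe set was 2.16-fold lower.

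Of 20 hypoxia response genes, Hif1a and Ndrg1 were named, and both were lower, as Vegfa was. Hif1a, which encodes the oxygen-regulated subunit of the HIF transcription factor, went from 6.25 ± 0.46 to 5.09 ± 0.42 (SD, n = 6 per group), or 2.23-fold lower. Both means lay below the median of every array, so this signal was dim. It is the only named probe set of Hif1a, and any unnamed ones were not read. Ndrg1, a gene induced by low oxygen, was 2.12-fold to 2.85-fold lower over its 5 named probe sets. The mean log2 level of Hif1a and Ndrg1 was 7.65 to 8.69 in control arrays and 6.61 to 7.09 in irradiated arrays, which did not overlap. Both genes were chosen by this contrast, so nothing is read from that separation, which 2.8% of all single probe sets showed. Neither gene was called between the irradiated sets in its brightest probe set (0.36 and -0.14, limma adjusted p = 0.613 and 0.768). The Vegfa differences there were 1.52 and 1.67, also not called in the main fit (limma adjusted p = 0.0573 and 0.0504). Whether Vegfa differs from these genes in that shift was not tested.

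The sialomucins and endothelial markers named in the table did not all move with Emcn. Of 8 sialomucin genes, Emcn was lower and Podxl, which encodes podocalyxin, was 3.75-fold higher in its brightest probe set and 4.98-fold higher in its other. Podxl went from 6.59 ± 0.27 to 8.49 ± 0.40 (SD, n = 6 per group), with changes of 1.47 within replicates 1 to 3 against 2.34 within replicates 4 to 6, where its other probe set had 2.38 and 2.25. Of 21 endothelial markers, 3 were named. Sox18, an endothelial transcription factor gene, was 2.21-fold higher, Vwf, which encodes von Willebrand factor, was 2.20-fold higher but missed the threshold once control replicate 2 or any of irradiated replicates 3 to 6 was dropped (limma adjusted p = 0.0512 to 0.0623), and Robo4, a guidance receptor gene that blood stem cells also express, was 3.27-fold lower. The mean log2 level of the 3 endothelial markers was 5.89 to 6.35 in control arrays and 6.04 to 6.68 in irradiated arrays, which overlapped. That mean combines the rises of Sox18 and Vwf with the fall of Robo4, so the overlap does not show unchanged markers. Sox18 was dim, with means of 4.96 in controls and 6.10 after irradiation, below the median of every array. Of 18 pericyte and stromal markers 0 were named, so none could be set beside Pdgfrb. Of the markers of other blood cells, 3 of 9 megakaryocyte genes were named (2 higher and 1 lower). Vwf is on that list as well as the endothelial one, and so is counted in both. Also named were 2 of 7 mast cell and basophil genes (both higher) and 1 of 9 macrophage and monocyte genes, Mpeg1, with a log2 difference of -1.06 that missed the threshold (limma adjusted p = 0.0522). The part of endothelial or stromal cells in the values of Emcn and Pdgfrb was not tested.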

How the data were processed

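Sorted KSL cells gave RNA that was labelled with biotin using an Ovation kit, per the labels. The authors deposited log2 expression values, 1 row per probe set. The submitters' processing notes name Partek without a version or role, and how background and normalization were handled is not given in the sources used here. In the table of changed probe sets, the authors also deposited a linear ratio and signed fold of irradiated over control arrays with its unadjusted p-value and gene symbol. Per the file headers it holds F and sum of squares columns too, which are scores from an analysis of variance. For the 6 members, log2 ratios recomputed from the values differed from the authors' deposited ones by at most 1.13e-05, which sets scale and direction. That table alone names probe sets. Symbols were brought up to date by gene ID from RefSeq annotation of GRCm38.p6, the source of loci and promoter windows.

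limma 3.58.1 under R 4.3.3 was fitted to all 22626 probe sets without a filter (lmFit, then eBayes with its default prior), and Benjamini-Hochberg adjustment ran over all of them. A fit with 4 cells (group by replicate set) gave the differences between replicate sets. These contrasts were not used by the authors' selection, which did use the spread within groups. No permutation test was run inside a set, where the smallest two-sided p for 3 arrays against 3 is 0.1. The fits were tested on simulated data with noise at the spread within groups, which includes the shifts between sets. The group fit recovered 83 of 100 changes of 1 log2 unit and 97 of 100 changes of 2. The fit of the difference between sets recovered 26 and 79 of 100, so it missed most differences of 1 log2 unit. The number of arrays limits the precision, with a median SE of 0.132 for the group difference and 0.224 for the difference between sets.

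The members, gene lists, replicate sets and rules were chosen with earlier results of these data known. Named were the members, for each the 3 named genes with the highest Pearson r of deviations within group and replicate set, and every gene of the pathway, endothelial and pericyte lists in the authors' table, with other marker genes where a result touched them. One gene of the KSL list was left out of the marker values and is not reported here. The brightest named probe set stands for a gene other than a member. Same-numbered control and irradiated arrays had deviations that correlated with r = 0.0106 to 0.286, not all above 0.1, so the numbers were not taken as pairs. Alternatives were quantile normalization, subtraction of array medians, removal of the dimmest 40% of probe sets, array weights, a trended and robust prior, the replicate set as a term, a replicate block, each set alone and removal of each array in turn. Figures were drawn with matplotlib 3.10.9.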

Additional observations from a re-analysis of the deposited data

How the results depend on the processing

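The log2 differences of the 6 member probe sets stayed below 0 under every alternative listed for them and moved by less than 1 pooled SD. That SD is the spread of single arrays within groups and is wider than the SE. Emcn went from -1.01 to -0.98 with array medians subtracted. Vegfa 1420909_at (pooled SD 0.78, SE 0.40) went from -1.72 to -2.47 in replicates 1 to 3 alone and to -0.96 in replicates 4 to 6 alone. With 1 array left out they ranged from -1.90 to -1.40 and from -1.57 to -1.16 for Vegfa (1420909_at and 1451959_a_at), from -1.34 to -0.90 for Hbegf, from -2.01 to -1.64 and from -1.43 to -1.14 for Pdgfrb (1436970_a_at and 1417148_at) and from -1.11 to -0.93 for Emcn. The number of members called lower was 4 to 6 with 1 array left out, 5 in replicates 1 to 3 alone and 6 otherwise.

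Counts over all probe sets depended on the arrays. Higher and lower calls numbered 2099 and 1833 with the replicate set as a term, 539 and 601 in replicates 1 to 3 alone, and 720 and 738 in replicates 4 to 6 alone. With 1 array left out they ranged from 740 to 1531 and from 773 to 1303. Without control replicate 1 there were 837 higher calls, and without irradiated replicate 1, 5 or 6 there were 740, 830 and 769, with 773 lower calls without irradiated replicate 1. The replicate block gave 1451 higher and 1350 lower calls and left all 6 members called. A random replicate block changed no call of a member between the sets (-1.34 for Pdgfrb 1436970_a_at, adjusted p = 0.0131, for example).

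Between the irradiated sets, the Vegfa differences of 1.67 (1420909_at) and 1.52 (1451959_a_at) passed the threshold with the dimmest 40% of probe sets left out and with a trended and robust prior, at the same values, and with array weights at 1.73 and 1.54. With 1 array left out they ranged from 1.29 to 1.98 and from 1.34 to 1.66. Pdgfrb 1417148_at ranged from -0.46 to 0.00, turning to 0.00356 without irradiated replicate 2. Between the control sets, Emcn ranged from -0.73 to -0.56, Pdgfrb from -1.62 to -1.14 (1436970_a_at) and from -1.13 to -0.85 (1417148_at), Hbegf from -0.05 to 0.42 and Vegfa from -0.05 to 0.50 (1420909_at) and from 0.12 to 0.85 (1451959_a_at, which passed without control replicate 1). Without control replicate 3 the control differences of Hbegf (-0.046) and Vegfa 1420909_at (-0.054) changed sign. The cause of these changes was not tested.

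Of the 15 correlations between members, 8 moved outside the interval of their value when replicate set means were kept in. That interval came from Fisher's z of r and counted 12 free values. The deviations have means removed and hold fewer, so the interval is too narrow and 8 may be too many. Those of the brighter Vegfa probe set went to 0.65 with Hbegf, -0.39 with Pdgfrb 1436970_a_at and -0.27 with Emcn. Those of 1420909_at went to 0.65 with Hbegf and -0.17 with Emcn, that between the Pdgfrb probe sets to 0.72, and those of Emcn with them to 0.66 and 0.80. Subtracting array medians moved none of the 15 in this way.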
